A study of Homo sapiens with 12 samples.

Results

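Clusters of chromatin regions listed for combined treatment with OSU-ERb-12 and enzalutamide were described at 7 human loci, those of FAM53A, DGKA, MIDEAS, GRIP2, CTDSP1, RAB26 and SKP1. A locus was the RefSeq gene body with 10 kb on either side. The genes were taken, out of 20037 protein-coding genes, because the deposited list for the combined treatment, called the combination list here, held many more regions in their loci than locus length predicts. Together the 7 loci held 28 of the 6248 combination regions. The number of combination regions at these loci is therefore a description of how they were chosen, and no test was made of it.

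The data were ATAC-seq profiles, a map of DNA open to a transposase, from 22Rv1, a human cell line established from prostate cancer. The 4 groups of 3 samples were OSU-ERb-12 plus enzalutamide, enzalutamide (1 µM), OSU-ERb-12 (100 nM) and vehicle, all treated for 6 h and all labelled with the genotype WT. The labels of the combined samples give no doses. The files used were 3 lists of regions on the hg38 build, 1 for each treatment, in which a region is a stretch of at least 200 bp with a start and an end, and no value per sample. Sequencing depth and the spread between replicates are therefore unknown. Each list is presumed to set its treatment against the vehicle group, which would then be shared by all 3, but no source used here states the comparison or whether listed regions gained or lost accessibility. The names of all 3 lists hold the tag neg, which may mark a direction and which nothing in the sources defines. Lists were assigned to treatments through the prefixes WT.EZ (combination), EZ (enzalutamide) and WT (OSU-ERb-12), which they share with the sample titles. The labels do not explain WT as a name for OSU-ERb-12.

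Accessible DNA is where transcription factors can bind, and it lies mostly at promoters, the start sites of genes, and at enhancers, which act from a distance. Several accessible stretches close together are common around strongly regulated genes. The androgen receptor, which enzalutamide blocks, and oestrogen receptor beta, the target of OSU-ERb-12, are nuclear receptors that bind such stretches. 22Rv1 cells also make shortened androgen receptors without the domain that enzalutamide binds. The 7 genes have unrelated roles: lipid signalling (DGKA), gene silencing and transcription (MIDEAS, CTDSP1), scaffolding and vesicle traffic (GRIP2, RAB26), protein breakdown (SKP1), and a nuclear protein of little-known function (FAM53A).

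The sequences that the listed regions touch, or at SKP1 adjoin, are given first, as 5′ to 3′ RefSeq sequence of GRCh38.p14, the hg38 assembly. Of the 28 combination regions, 1 reached into a RefSeq promoter window, the 250 bases before and 50 after a transcript start. It lay in MIDEAS, at chr14:73786951-73787150, and took in 41 bases of the window of the antisense transcript MIDEAS-AS1 (chr14:73787110-73787409, plus strand, start at 73787360). Those bases are in capitals.
MIDEAS-AS1: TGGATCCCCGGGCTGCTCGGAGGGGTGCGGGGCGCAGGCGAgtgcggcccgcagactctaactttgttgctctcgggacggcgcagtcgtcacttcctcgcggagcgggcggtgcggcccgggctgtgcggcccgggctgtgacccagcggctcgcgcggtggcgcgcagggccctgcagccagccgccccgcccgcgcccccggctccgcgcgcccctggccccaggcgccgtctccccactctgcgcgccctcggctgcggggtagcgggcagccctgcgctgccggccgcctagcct
The region ended 58 bp downstream of the MIDEAS start at 73787208 on the minus strand. This window is GC-rich, with 79.0% G or C against a median of 58.7% over 34943 RefSeq promoter windows.

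A combination region at SKP1 (chr5:134177201-134177550) began at the base next to the SKP1 promoter window (chr5:134176901-134177200, minus strand, start at 134176950), 251 bp upstream of the start. The window is shown with its TATA box letters, TATAAA, in capitals.
SKP1: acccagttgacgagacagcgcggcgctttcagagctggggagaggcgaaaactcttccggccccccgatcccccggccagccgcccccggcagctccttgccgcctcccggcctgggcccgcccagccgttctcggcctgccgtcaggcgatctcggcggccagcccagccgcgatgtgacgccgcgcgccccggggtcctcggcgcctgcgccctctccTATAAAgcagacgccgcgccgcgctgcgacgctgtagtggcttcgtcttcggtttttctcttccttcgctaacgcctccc
TATAAA occurs on either strand in 11.6% of all the promoter windows.

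Within CTDSP1, the combination region chr2:218402701-218402900 covered the last 22 of the 77 bases of the MIR26B hairpin (chr2:218402646-218402722, plus strand), which lies inside the gene and carries the microRNA miR-26b. Capitals mark the covered bases of the hairpin, and the seed, bases 2 to 8, in the mature microRNAs.
MIR26B hairpin: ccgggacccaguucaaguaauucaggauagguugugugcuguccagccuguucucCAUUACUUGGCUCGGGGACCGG
hsa-miR-26b-5p: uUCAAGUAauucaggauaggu
hsa-miR-26b-3p: cCUGUUCUccauuacuuggcu
The region held 12 of the 21 bases of the 3p arm and none of the 5p arm. In the whole combination list 5 of 1562 RefSeq hairpins (0.320%) were touched by a region, against 17 (1.09%) in the enzalutamide list and 4 (0.256%) in the OSU-ERb-12 list.

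Promoter windows of DGKA, CTDSP1 and MIDEAS itself (142 bases) were touched by enzalutamide regions and by no combination region, and those of DGKA and CTDSP1 are shown. The DGKA window at chr12:55927066-55927365 (plus strand, start at 55927316) held the whole enzalutamide region chr12:55927101-55927350, in capitals here. The CTDSP1 window at chr2:218398492-218398791 (plus strand, start at 218398742) held 159 bases of the region chr2:218398451-218398650.
DGKA: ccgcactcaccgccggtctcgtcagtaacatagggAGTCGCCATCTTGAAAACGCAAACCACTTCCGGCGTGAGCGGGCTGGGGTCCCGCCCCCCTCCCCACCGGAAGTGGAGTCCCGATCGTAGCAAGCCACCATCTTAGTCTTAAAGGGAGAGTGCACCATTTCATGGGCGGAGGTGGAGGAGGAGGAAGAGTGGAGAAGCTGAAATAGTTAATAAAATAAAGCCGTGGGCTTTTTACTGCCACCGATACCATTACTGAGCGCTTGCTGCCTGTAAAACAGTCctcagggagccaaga
CTDSP1: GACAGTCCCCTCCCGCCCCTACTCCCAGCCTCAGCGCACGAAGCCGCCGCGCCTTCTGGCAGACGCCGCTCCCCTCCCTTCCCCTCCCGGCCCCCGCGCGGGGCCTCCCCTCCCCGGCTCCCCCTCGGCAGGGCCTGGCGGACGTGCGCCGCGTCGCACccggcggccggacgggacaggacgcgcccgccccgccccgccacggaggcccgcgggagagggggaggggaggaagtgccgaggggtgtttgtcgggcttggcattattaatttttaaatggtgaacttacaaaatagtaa
The DGKA region also covered the start of PYM1, a gene on the opposite strand that encodes an exon junction complex factor, at 55927125.

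Motifs were searched on both strands of the 18 promoter windows found for 5 of the 7 genes. AGAACA, from the androgen response element, was in 1 window, a DGKA one, against 14.8% of all windows. AGGTCA, from the oestrogen response element, was in 2, of MIDEAS and CTDSP1, against 13.8%. Neither TGTTTAC of forkhead factors (3.42% of all windows) nor TGANTCA of AP-1 (7.72%) was found in the 18. GGGCGG of SP and KLF factors was in 14, against 44.9%, CCAAT in 3 (34.7%) and CCGGAAG of ETS factors in 2 (10.2%). The 18 windows had a median of 67.8% G or C, above that of all windows, and windows of 1 gene overlap. A match of letters is not a measured binding site.

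FAM53A, which encodes a nuclear protein, had the most combination regions of the 7 loci. On chromosome 4 (gene body 1574062 to 1686017, minus strand) it held 6, where 0.146 were expected. Expected numbers are locus length times the regions per base on that chromosome. From low to high position they were chr4:1567151-1567350, chr4:1614851-1615050, chr4:1624301-1624500, chr4:1639051-1639250, chr4:1645551-1645800 and chr4:1670701-1670950. The first lay 6712 bp outside the gene, and the other 5 were inside it.

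All 6 FAM53A regions lay away from its promoters: the nearest was 13041 bp downstream of a FAM53A start. The enzalutamide list held 4 regions here, all in the gene body, and the nearest to a promoter, chr4:1683451-1683650, was 341 bp downstream of the start at 1683991. None of them overlapped a combination region, although chr4:1623801-1624100 was 200 bp from the third. The single OSU-ERb-12 region, chr4:1645551-1645800, had the same boundaries as the fifth combination region. Of the 6 combination regions 5 were thus in neither other list, as were 75.2% of the whole combination list, of which 16.3% overlapped an enzalutamide region.

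DGKA encodes diacylglycerol kinase alpha, which turns the signalling lipid diacylglycerol into phosphatidic acid. Its locus on chromosome 12 (gene body 55927316 to 55954023, plus strand) held 4 combination regions (0.169 expected). Those at chr12:55929201-55929400 and chr12:55941251-55941450 were in the gene, 1130 and 5243 bp downstream of the nearest start, and in no other list. Those at chr12:55957201-55957400 and chr12:55958001-55958200 lay 3178 and 3978 bp beyond the end of DGKA, in the body of PMEL, a gene of pigment cell melanosomes.

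The PMEL pair carried the sharing at this locus. The region at 55957201 had identical boundaries in all 3 lists, and the region at 55958001, 600 bp further on, identical boundaries in the combination and OSU-ERb-12 lists. The other enzalutamide regions, 2 of 3, were at DGKA promoters: the region shown above, and chr12:55931101-55931350, 60 bp upstream of the start at 55931410. The third OSU-ERb-12 region, chr12:55918401-55918650, was 8666 bp outside DGKA, in PYM1. Listed regions inside DGKA thus came from the combination and enzalutamide lists, at separate positions, with none from OSU-ERb-12.

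MIDEAS is the scaffold of MiDAC, a histone deacetylase complex built around HDAC1 and HDAC2. All 4 of its combination regions (0.139 expected) were inside the gene on chromosome 14 (73715122 to 73790285, minus strand). The regions chr14:73721151-73721350 and chr14:73728951-73729150 lay towards the far end of the gene from its start, and chr14:73775801-73776000 and chr14:73786951-73787150 in its first part. The last of these, just inside the gene from its start and its promoter window, lay within the enzalutamide region chr14:73786651-73787300, which covered the MIDEAS start.

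Enzalutamide regions were more numerous than combination regions at MIDEAS, 7 in all, and all in the gene body. The enzalutamide region over the start, of 650 bp, was among the widest 1.79% of the enzalutamide list. The remaining 3 combination regions were 2750 to 4650 bp from the nearest enzalutamide region. OSU-ERb-12 had 1 region, chr14:73755501-73755800, 850 bp from an enzalutamide region and 20000 bp from the nearest combination region. Sharing at MIDEAS was thus with enzalutamide alone, next to the start.

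CTDSP1 encodes a small phosphatase that acts on the tail of RNA polymerase II and helps the repressor REST keep neuronal genes silent. Its locus on chromosome 2 (gene body 218396351 to 218405941, plus strand) held 3 combination regions (0.0426 expected). The region over MIR26B was in no other list, and the nearest enzalutamide region was 800 bp away. The other combination regions, chr2:218407451-218407700 and chr2:218408301-218408500, lay 1510 and 2360 bp beyond the end of CTDSP1 and in no annotated gene.

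These downstream regions overlapped both other lists. Each lay inside the enzalutamide region chr2:218406851-218408650, whose 1800 bp made it the widest of all 25317 regions of that list. In the OSU-ERb-12 list they overlapped chr2:218407501-218407700 and chr2:218408251-218408500, which shared an end position with them. The wide enzalutamide region was thus matched by a pair of narrow regions in each of the other lists. The remaining 3 enzalutamide regions were in the gene body, and enzalutamide regions covered 8.79% of the whole locus, against 2.20% for combination and 1.52% for OSU-ERb-12 regions.

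GRIP2 encodes a scaffold protein that binds AMPA-type glutamate receptors through PDZ domains. On chromosome 3 (gene body 14489107 to 14603017) its locus held 5 combination regions (0.399 expected): chr3:14487501-14487750, chr3:14497501-14497700, chr3:14511951-14512150, chr3:14540501-14540700 and chr3:14608201-14608550. The first was 1357 bp outside the gene, in SLC6A6, a taurine transporter gene. The last, of 350 bp, was 5184 bp outside the other end and in no annotated gene.

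GRIP2 had the most combination regions shared with enzalutamide, 3 of 5. The region at 14511951 had the same boundaries in both lists, the region at 14540501 lay within chr3:14540451-14540800, and the region in SLC6A6 overlapped chr3:14487601-14487800. The remaining enzalutamide region, chr3:14553451-14553650, was not shared. The 3 OSU-ERb-12 regions were 4200 to 24450 bp from the nearest combination region. So the sharing here was with enzalutamide and none of it with OSU-ERb-12.

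RAB26 encodes a small GTPase of secretory and synaptic vesicle traffic. It is the shortest of the 7 genes, at 6.02 kb (chromosome 16, 2148144 to 2154165), and held 3 combination regions (0.0623 expected). The region chr16:2153651-2153950, inside the gene and 215 bp from its end, had the same boundaries in the enzalutamide list. The region chr16:2143501-2143700 lay 4444 bp outside the gene in no annotated gene, and chr16:2163301-2163500 lay 9136 bp outside it, in the ubiquitin ligase gene TRAF7. Enzalutamide also listed chr16:2148901-2149150 in RAB26 and chr16:2155901-2156100, which was 119 bp downstream of the TRAF7 start. No OSU-ERb-12 region lay in this locus, where 0.137 were expected.

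SKP1 encodes the adaptor that joins F-box proteins to the cullin of SCF ubiquitin ligases. None of its 3 combination regions (0.0712 expected) was inside the gene on chromosome 5 (134148935 to 134176950, minus strand). The promoter-side region at chr5:134177201-134177550 was in neither other list, 6550 bp from the nearest enzalutamide and 32600 bp from the nearest OSU-ERb-12 region. The region chr5:134144401-134144650, in the Wnt effector gene TCF7, overlapped the OSU-ERb-12 region chr5:134144251-134144600. The region chr5:134184101-134184300, 7151 bp upstream of the SKP1 start, had the same boundaries as the only enzalutamide region of the locus. Each single agent thus matched a different region of this cluster, and the region next to the promoter was matched by neither.

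**Figure D1:**
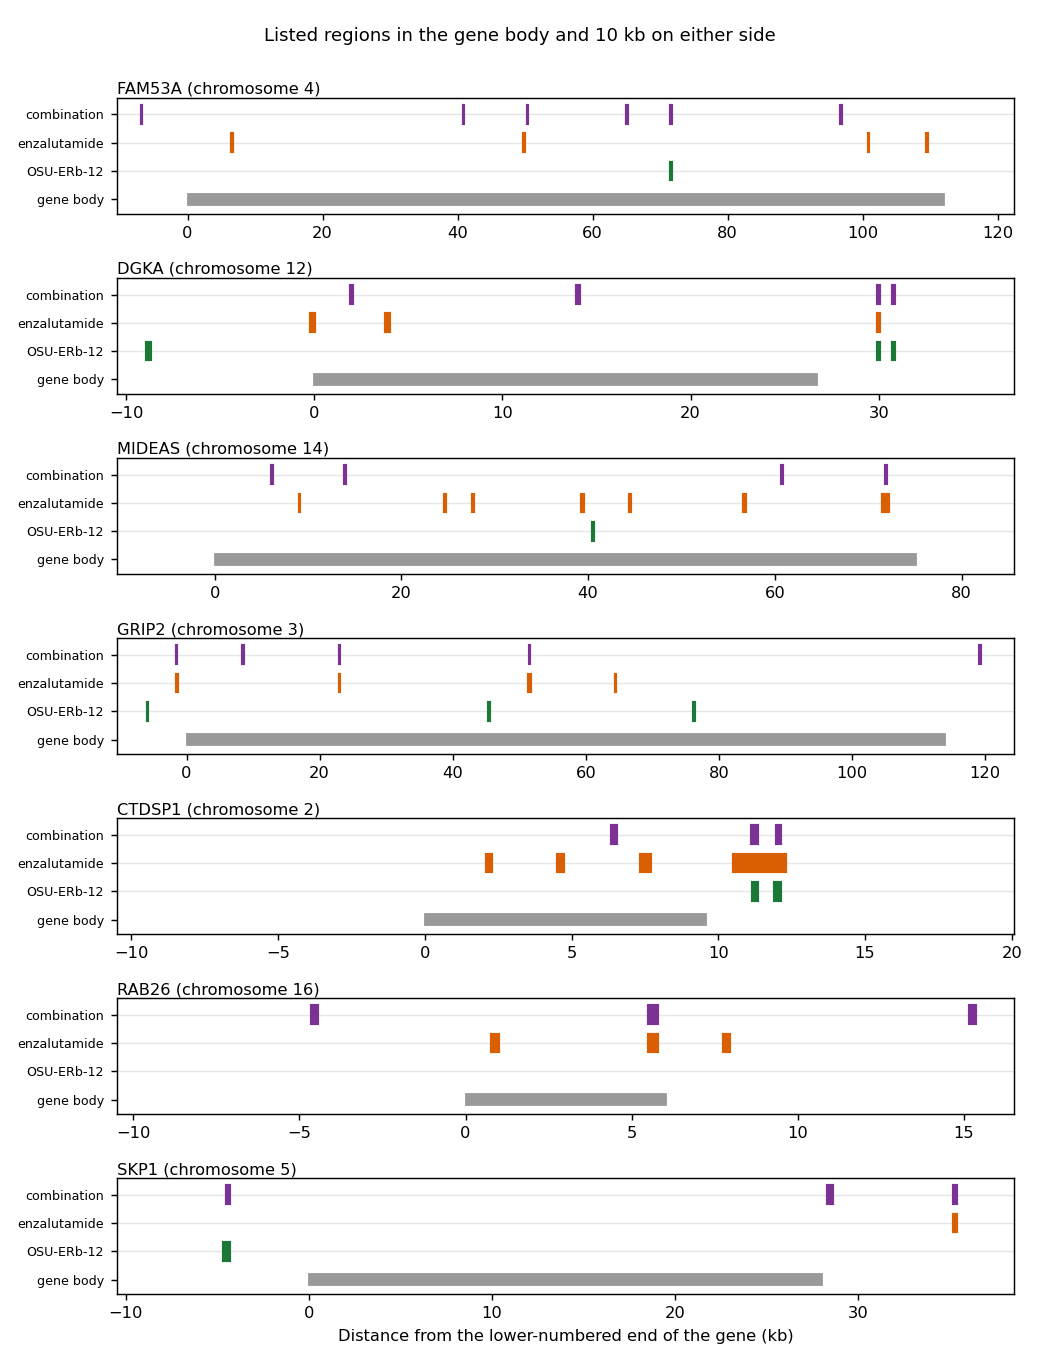
Positions of the 65 listed regions at the 7 loci, with distance from the lower-numbered end of the gene in kb on the horizontal axis and a row for each list; the grey bar is the gene body, regions are drawn to scale with an outline of fixed thickness. At CTDSP1 a single wide enzalutamide region faces a pair of narrow regions in each other list, and at RAB26 the OSU-ERb-12 row is empty.

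Across the 7 loci, all 7 genes held at least 3 combination regions, as did 203 of the 20037 protein-coding genes (1.01%). This follows from how they were chosen. In the enzalutamide list all 7 held at least 1 region, where 58.3% of protein-coding genes did, and 6 held at least 3, where 13.6% did. In the OSU-ERb-12 list 6 of 7 held at least 1 region (39.1% of all genes) and 2, DGKA and GRIP2, held at least 3 (6.32%). The loci had a median length of 48.0 kb, against 44.1 kb for all genes. All 3 lists had a region at 6 of the 7 loci, with RAB26 the exception, and at 11.0% of all genes. The lists presumably share their vehicle samples and the genes were chosen from 1 of them, so the counts in the other lists were not tested and show nothing particular to these genes.

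In all, the loci held 28 combination, 26 enzalutamide and 11 OSU-ERb-12 regions, where 1.03, 4.21 and 3.16 were expected. The ratios of observed to expected were 27.2, 6.18 and 3.49. The first restates how the loci were chosen. Expected numbers take in all of a chromosome, with or without genes, so protein-coding loci in general may exceed them. No ratio for other loci is set beside these. Enzalutamide came closest to the combination in number, but its list is the longest of the 3, so the most regions were expected from it. At MIDEAS and CTDSP1 it listed more regions than the combination. For OSU-ERb-12 no locus had more regions than the combination.

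**Figure D2:**
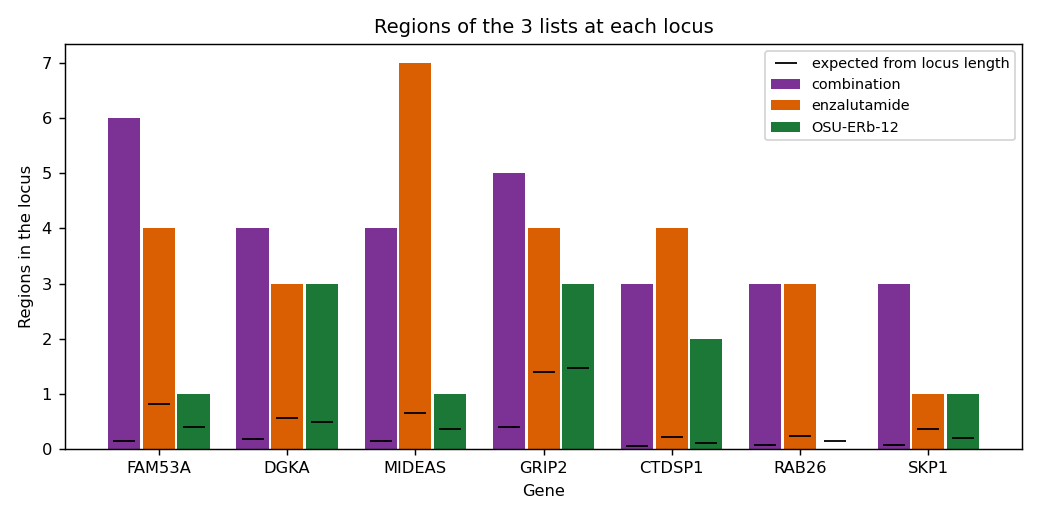
Number of regions of each list in each locus (bars), with the number expected from locus length and regions per base on that chromosome (black lines). Combination regions number 3 to 6 at each locus, with 7 enzalutamide regions at MIDEAS and no OSU-ERb-12 region at RAB26.

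Sharing was counted where regions overlapped by at least 1 bp. Of the 28 combination regions, 12 (42.9%, exact Clopper-Pearson 95% interval 24.5 to 62.8) overlapped a region of either single agent. In the combination list outside the 7 loci 1538 of 6220 did (24.7%; 23.7 to 25.8), a share just inside the first interval. Intervals cover the counting of regions only, and regions of 1 locus are not independent. Enzalutamide alone accounted for 6 (21.4%), OSU-ERb-12 alone for 3 (10.7%) and both for 3 (10.7%). Those in both were the region of identical boundaries beyond DGKA and the pair beyond CTDSP1. Outside the loci these shares were 12.1%, 8.52% and 4.15%, so enzalutamide alone was the largest there too. The other 16 (57.1%) were in neither list, against 75.3% outside the loci.

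Each of the 7 loci had at least 1 shared combination region. Of all 203 genes with 3 or more combination regions, 115 (56.7%) had such a region, and of all protein-coding genes 7.60%. Enzalutamide sharing occurred at 6 loci, all but FAM53A, and OSU-ERb-12 sharing at 4, FAM53A, DGKA, CTDSP1 and SKP1. No share of all genes by agent is set beside these 2 counts. In the whole combination list 16.3% of regions overlapped enzalutamide and 12.7% OSU-ERb-12, so the difference is not particular to these loci. Identical boundaries were found for 6 of the 28 regions (21.4%; exact interval 8.30 to 41.0), against 404 of 6220 (6.50%; 5.90 to 7.14) outside the loci. They were at FAM53A, GRIP2, RAB26 and SKP1, 1 each, and at DGKA, 2, which are 600 bp apart. Regions of 1 locus are not independent, and only shared regions can have identical boundaries, so this difference was not tested.

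Counted from the single agents, 8 of the 26 enzalutamide regions (30.8%) and 6 of the 11 OSU-ERb-12 regions (54.5%) overlapped a combination region. In the whole lists these shares were 4.02% and 4.43%. Loci chosen for many combination regions offer more of them to overlap, so no test was made of these shares.

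Combination regions that did not overlap a single-agent list were also closer in the median to enzalutamide than to OSU-ERb-12 regions, of which the enzalutamide list holds more. The median gap from the 19 regions not shared with enzalutamide to the nearest enzalutamide region was 6550 bp, against 26700 bp for all such regions of the combination list. For OSU-ERb-12 it was 20525 bp over 22 regions, against 32400 bp. Together the loci hold more single-agent regions than locus length predicts, which makes short gaps likely, so the medians were not tested. Gaps under 1 kb without overlap occurred 3 times for enzalutamide, at FAM53A, DGKA and CTDSP1, and not for OSU-ERb-12, whose shortest was 4200 bp.

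**Figure D3:**
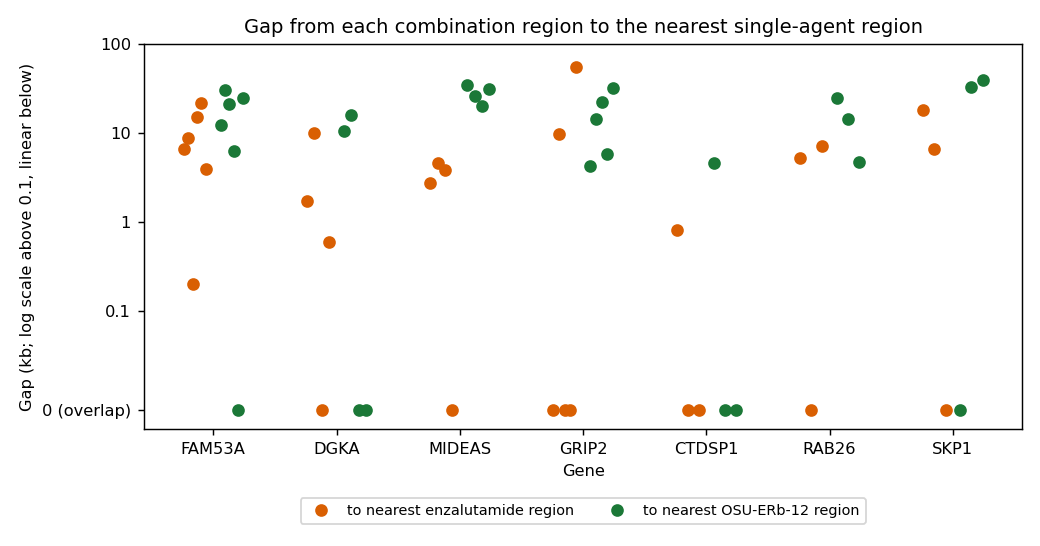
Gap in kb from each of the 28 combination regions to the nearest enzalutamide region (orange) and OSU-ERb-12 region (green), by locus, on an axis that is logarithmic above 0.1 kb and has overlapping regions at 0. Regions at 0 occur at every locus, and gaps to OSU-ERb-12 regions without overlap are 4200 bp or more.

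How close the combination regions lay to gene ends, at either the start or the far end of a gene, depended on the distance allowed. Within 1 kb of an end of a protein-coding gene were 2 of 28 (7.14%; exact interval 0.877 to 23.5), at RAB26 and SKP1, against 971 of 6220 (15.6%) outside the loci. The interval for the 7 loci includes the share outside them. Within 5 kb were 12 of 28 (42.9%; exact interval 24.5 to 62.8), against 29.0% of the whole list. The order of the shares turned round, but this interval too includes the share it is set against. Loci drawn 10 kb around genes also make places near a gene end likely. The region 58 bp from the MIDEAS start is not among the 2, since the annotated end of the gene is 3135 bp from it. In the enzalutamide list 5 of 26 regions at these loci (19.2%) were at a gene end, and in the OSU-ERb-12 list 0 of 11, against 22.4% and 8.09% of the whole lists. Bodies of protein-coding genes held 21 of the 28 combination regions, 16 of them in the 7 genes and the other 5 in PMEL, SLC6A6, TRAF7 and TCF7. This is 75.0%, against 54.3% outside the loci, and loci drawn around gene bodies make a high share likely.

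The lists also differed in how their regions split between gene and flank. Combination regions stood at 4.31 per 100 kb in the 371.4 kb of gene bodies and at 8.57 per 100 kb in the 140.0 kb of flanks. The enzalutamide values were 5.65 and 3.57, and the OSU-ERb-12 values 1.08 and 5.00. These densities rest on 16 and 12, 21 and 5, and 4 and 7 regions. The loci were chosen on the combination list, and no split over all genes is set beside the densities. Flanks also take in bodies of other genes, with combination regions in PMEL, SLC6A6, TRAF7 and TCF7. Of the 12 flanking combination regions 5 overlapped an enzalutamide region and 5 an OSU-ERb-12 region, 3 of them both. In the 7 gene bodies 5 of 16 were shared, 1 of them, at FAM53A, with OSU-ERb-12 and the rest with enzalutamide. Over the whole combination list 16.3% overlapped enzalutamide and 12.7% OSU-ERb-12.

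Of the 28 combination regions 20 (71.4%; exact interval 51.3 to 86.8) were 200 bp wide, against 68.0% of the list outside the loci, and the widest were the 350 bp regions at GRIP2 and SKP1. Neighbouring combination regions were 600 bp apart in the pairs beyond DGKA and CTDSP1. Elsewhere the spacing was 4550 to 67500 bp. Merging regions within 1 kb of each other therefore left 26, with only those pairs joined.

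The expected number depends on which density is used, and all 7 loci kept more regions than expected under the 3 that were tried. Since the loci were chosen for this excess, its persistence is description and lends the clusters no support. With the density of the chromosome the ratio of observed to expected was 12.55 at GRIP2 and 70.35 at CTDSP1, the lowest and highest of the 7. With the density within 5 Mb of the locus the range was 9.26 at FAM53A to 39.0 at CTDSP1. FAM53A moved most between these 2, with a ratio of 40.98 on the chromosome and 9.26 locally. The list held 4.91 regions per Mb around it and 1.11 per Mb on chromosome 4 as a whole. The local density counts the regions of the locus itself, for which it was chosen.

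**Figure D4:**
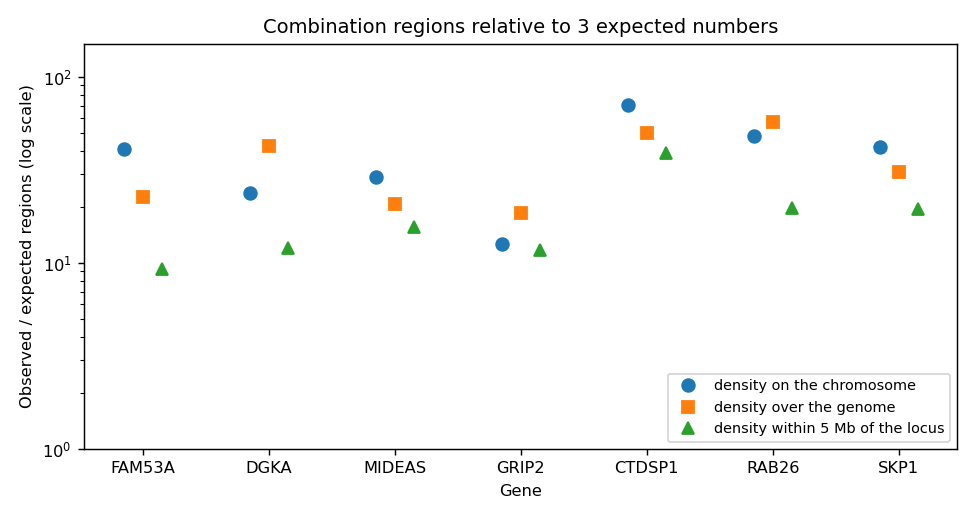
Ratio of observed to expected combination regions (log axis) at each locus for expected numbers from regions per base on the chromosome, in the genome and within 5 Mb of the locus. The local density gives the lowest of the 3 ratios at each locus, from 9.26 at FAM53A to 39.0 at CTDSP1.

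The 7 loci are short for the number of regions they hold, which follows from how they were chosen and is description only. FAM53A, at 132.0 kb, was the shortest of the 9 loci with 6 combination regions, the highest number at any gene, and the next was 448.4 kb. GRIP2 was the shortest of 18 loci with 5, DGKA the shortest and MIDEAS the next of 32 with 4, and RAB26 the shortest of 144 with 3, of which 5 were shorter than CTDSP1 and 17 shorter than SKP1. The rank behind the choice used a Poisson tail on locus length and chromosome, in which the 7 genes were among the first 10 non-overlapping loci, with POLL, LOC124900163 and PQBP1. GRIP2 was the tenth, with 5 regions and 0.399 expected, and ASPG the eleventh, with 3 and 0.0728.

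**Figure D5:**
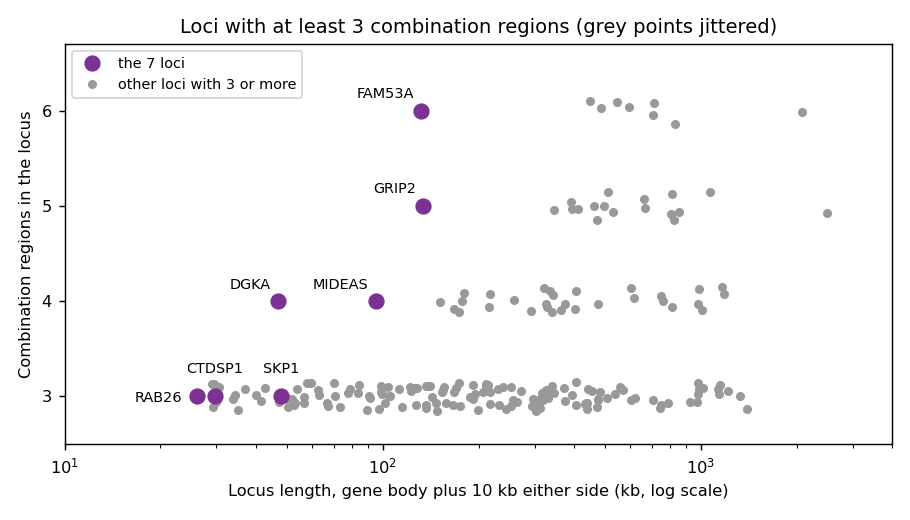
Number of combination regions against locus length in kb (log axis) for all 203 protein-coding loci with at least 3; purple points are the 7 loci and grey points, shifted slightly up or down, the other 196. The purple points lie at or near the short end for their number, with a median locus of 48.0 kb against 267.8 kb for the others. This follows from how the 7 were chosen.

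Among those 196 other loci the medians were 3 combination, 3 enzalutamide and 4 OSU-ERb-12 regions, while the 7 loci had medians of 4, 4 and 1. The other loci are longer, so the numbers are not comparable per length. The genes with the most similar numbers in the 3 lists, by Euclidean distance over the 3 numbers, were SHB for FAM53A (4 combination, 4 enzalutamide and 2 OSU-ERb-12 regions; distance 2.24), LRP1 for DGKA (3, 3 and 3; distance 1, as for 8 genes in all), RIN3 for MIDEAS (3, 6 and 1; distance 1.41) and PTPRN2 for GRIP2 (5, 5 and 3; distance 1). Identical numbers were found at 3 genes for CTDSP1 (3, 4 and 2), at 3 for RAB26 (3, 3 and 0) and at 8 for SKP1 (3, 1 and 1). The nearest of them in locus length were ACKR2, SPEG and ASPG, and ties were settled by locus length for LRP1 too. Numbers from 3 lists are a thin basis for likeness, and nothing is implied about function.

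Combination regions in these loci often lay in or near other genes, so they cannot be assigned to the gene that names the locus. The locus of PMEL itself held 2 combination, 2 enzalutamide and 3 OSU-ERb-12 regions, that of SLC6A6 2, 2 and 2, and that of TRAF7 2, 3 and 3. TCF7 held 1, 2 and 2. Near FAM53A, SLBP, which encodes the histone mRNA stem-loop binding protein, held 1, 4 and 1. SLC11A1, a metal transporter gene next to CTDSP1, held 1, 4 and 0.

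Relatives and partners of the 7 genes were read from 7 short lists holding 51 other genes. Of these, 17 (33.3%) held a combination region, 36 (70.6%) an enzalutamide region and 26 (51.0%) an OSU-ERb-12 region, against 21.7%, 58.3% and 39.1% of all protein-coding genes. The median number of combination regions was 0 both in the 51 and in all genes, and loci of different length were not matched. At least 3 combination regions were found at 2 of the 51, CTDSPL and GRIP1.

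In the list of small phosphatases of the CTDSP1 type and REST, 4 of 5 genes held a combination region. CTDSPL, a paralogue of CTDSP1 on chromosome 3, held 3 combination, 7 enzalutamide and 7 OSU-ERb-12 regions, where 0.424, 1.49 and 1.56 were expected. CTDSP2 held 2 combination regions (0.169 expected), and CTDSPL2 and CTDNEP1 held 1 each. REST held no combination region and 1 enzalutamide region.

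In the GRIP and AMPA receptor list 2 of 7 other genes held a combination region. GRIP1, the paralogue of GRIP2, held 3, close to the 2.68 expected for its long locus, and GRIPAP1 held 1. None of the AMPA receptor genes GRIA1 to GRIA4 held any.

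The secretory RAB list had combination regions at 4 of 10 genes, with 2 at RAB3C and 1 each at RAB37, RAB3D and RAB8A. Partners of MIDEAS in MiDAC had them at 2 of 5, HDAC2 and TRERF1, with 1 each, while HDAC1 and DNTTIP1 had none. Among diacylglycerol kinases 2 of 9 had 1 each, DGKB, with 2.55 expected, and DGKG, with 0.700 expected. FAM53B held 1 and FAM53C none. Of 13 genes of SCF ligases 2, FBXW7 and CCNF, held 1 each, and the scaffold CUL1 held none. Of the 51 relatives and partners, then, CTDSPL and GRIP1 had 3 combination regions each, and the others had 2 or fewer.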

How the data were processed

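Measurements were ATAC-seq libraries of 12 samples in 4 groups of 3, described as biological triplicates per the labels' protocols, so replicates entered only through the deposited lists. Nucleosome-free fragments were separated with ATACSeqQC per the labels' protocols; per the submitters' processing notes, FastQC and Trimmomatic were used and the build was hg38. Not given in the sources used here are how regions were called, at what threshold, against what, with replicates pooled or not, and whether reads were shifted for the transposase. The deposited score column of each list is 0 in every row, so regions could not be ranked or filtered. Region boundaries lie on a 50 bp grid.

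Genes came from RefSeq (GRCh38.p14; 24 chromosomes), and coordinates are 1-based. All 58 genes of the short lists, the 7 included, matched by symbol. Expected numbers are locus length times regions per base of the chromosome, measured between its first and last annotated gene or listed region. Promoter windows and microRNAs came from RefSeq tables of the same build. Named genes were the 7, their neighbours within the loci, listed relatives with a combination region (others named were chosen after their values were seen), the gene of most similar numbers for each (ties by nearest locus length), and the first 15 loci by rank, of which the text gives those that matter. The genes, lists and motifs were chosen with earlier results of these data known. No significance test was made, since the lists hold no value per sample and presumably share their vehicle samples. Interval counting was tested on simulated data. Alternatives were other locus windows, merging, other overlap rules and other densities. Python 3.11.15, NumPy 2.4.6, pandas 2.3.3, SciPy 1.17.1 and Matplotlib 3.10.9 were used.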

Additional observations from a re-analysis of the deposited data

How the results depend on the processing

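Of 35 alternative values, 26 stayed within 1.5 times the main count, or for ratios within the exact Poisson 95% interval of the main ratio, and 9 did not. That interval covers the counting of regions and not the change of density, so the rule for ratios is the laxer of the 2. With the gene body alone, where fewer bases are counted, the loci held 16 combination and 4 OSU-ERb-12 regions. A combination region was then held by 11 of the 51 related genes (13.9% of all genes). Of those 16 combination regions 5 were shared (31.25%), against 42.9% with the flanks included and 24.8% of the whole list. The lower share in gene bodies was not tested. With 50 kb on either side there were 44 enzalutamide and 19 OSU-ERb-12 regions, and 30 related genes held a combination region (39.7% of all genes). Combination regions numbered 32 with that window. With 5 kb around gene ends 12 of the 28 combination regions (42.9%) were at an end, against 29.0% of the list, while the 1 kb share was below that of the list. Loci drawn around genes make places near an end likely. The ratio at FAM53A was 9.26 with the density within 5 Mb. The intervals of the other ratios, from 3 to 5 regions, are wide and take in moves of over 1.5 times: with that density the ratios were 12.1 at DGKA, 15.6 at MIDEAS, 39.0 at CTDSP1, 19.6 at RAB26 and 19.5 at SKP1, against 23.7, 28.8, 70.35, 48.15 and 42.15. With the genome density they were 22.5 at FAM53A and 42.3 at DGKA. The shared combination regions numbered 12 when an overlap had to cover 50% of the shorter region (42.9%, against 23.9% of the whole list). They numbered 13 when regions within 500 bp were counted (46.4%, against 28.3% of the whole list). No paired analysis was possible because the lists hold no values per sample; for the same reason replicates could not be left out, and no stricter threshold could be set. Depth is unknown, so no region listed does not mean no change.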
